A study of Rattus norvegicus with 15 samples.

Results

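Rab3 GTPases, synapsins and rabphilin, proteins that hold synaptic vesicles near their release site, were compared between neurons captured from 2 rat midbrain regions. The 7 genes were chosen by name (Rab3a, Rab3b, Rab3c, Rab3d, Syn1, Syn2 and Rph3a), with earlier results of these data known. Every probe set that the platform annotation gives to one of them was taken. That gave 11 probe sets, with at least 1 for each gene, out of 8740 on the array other than controls. Each probe set reads a transcript through several short probes. The captures were neurons of the substantia nigra pars compacta (SNc, 8 arrays) and of the ventral tegmental area (VTA, 7 arrays), cut out of rat brain by laser and profiled as total RNA on an Affymetrix expression array. The labels give no genotype, treatment, age, sex or strain, no number of animals, and no statement of how neurons were recognised. A p-value here therefore measures the spread between these arrays, which may be partly technical.

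Rab3 proteins are small GTPases that sit on the vesicle membrane in their GTP-bound form and help to bring vesicles to the active zone. Rabphilin, the product of Rph3a, binds GTP-bound Rab3. Synapsins coat the vesicle surface and tie vesicles into a reserve pool, and kinases release them from it by phosphorylation. In dopamine neurons the vesicles so handled are filled with dopamine through the vesicular monoamine transporter, and they are released from axons and also from cell bodies and dendrites, the part that a midbrain capture holds.

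The letters upstream of the genes that the results turn on were read from RefSeq (rat build GRCr8), which had an entry for all 7 genes. They are shown because Rab3c gave the only calls of the 7 genes and because Syn1 and Syn2 had mean differences of opposite sign. The 250 bases before the start were searched on both strands for TGACGTCA (the cAMP response element), the TGACG within it, GGGCGG (the GC box), TATAAA (the TATA box), CCAAT (the CCAAT box) and ACTACAACT, letters common in the element bound by ZNF143. The last of these was chosen after the Rab3c sequence had been seen. Capitals mark the cAMP response element, the GC box and ACTACAACT. Rab3c held ACTACAACT at 2 places, in opposite orientations, and the pair is printed with its surroundings from the minus strand at chr2:43576091-43576120 and chr2:43576042-43576071. RefSeq also gives Rab3c a form that begins further upstream, so these bases may lie within that longer gene. The starts used for Rab3b, Rab3d and Rph3a were likewise not the outermost of their genes. Syn1 is printed from the plus strand at chrX:3725495-3725744 and Syn2 from the plus strand at chr4:149858669-149858918.
Rab3c, farther from the start: ggtatctgggAGTTGTAGTtcatagttttc
Rab3c, nearer to the start: acaagattagACTACAACTcccagaaggtc
Syn1: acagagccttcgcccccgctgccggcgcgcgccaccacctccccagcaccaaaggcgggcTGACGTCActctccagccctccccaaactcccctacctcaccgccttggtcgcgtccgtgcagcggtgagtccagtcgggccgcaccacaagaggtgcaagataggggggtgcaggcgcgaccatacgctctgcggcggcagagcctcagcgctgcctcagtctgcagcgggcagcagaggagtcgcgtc
Syn2: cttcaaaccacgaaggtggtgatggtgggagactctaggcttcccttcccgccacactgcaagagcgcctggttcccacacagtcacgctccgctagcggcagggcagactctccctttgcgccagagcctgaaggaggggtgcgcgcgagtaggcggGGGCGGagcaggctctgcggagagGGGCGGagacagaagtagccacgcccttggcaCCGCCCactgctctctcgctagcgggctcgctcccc

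The cAMP response element stood in Syn1 and in none of the other 6 genes, and 1.59% of 33469 rat promoters of the same length held it. GC boxes numbered 3 in Syn2, 2 each in Rab3a and Rab3d, 1 in Rab3c outside the printed windows and none in Rab3b, Syn1 and Rph3a, where 30.5% of the promoters held at least 1. TGACG was in Syn1, where it overlaps the cAMP response element, and in Rab3a and Rab3b (18.2% of promoters), CCAAT in Rab3a and Rph3a (34% of promoters), and TATAAA in none of the 7 (12.9% of promoters). The letters ACTACAACT were in 0.58% of the promoters, and 4 promoters, Rab3c among them, held them more than once. As they were chosen after the Rab3c sequence had been seen, these counts do not measure how unusual Rab3c is. These matches describe the letters only, since the arrays measured transcripts and no binding.

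The deposited values are linear intensities. The arrays had a common scale, with a 2% trimmed mean of 150.2 on each, and median intensities from 37.95 to 46.7. VTA 5 and VTA 8 stood apart most, with a median correlation to the rest of 0.91 and 0.919, where the other 13 arrays ran from 0.926 to 0.941. Both regions had high signals for genes that define dopamine neurons. Tyrosine hydroxylase (Th) was 6615 ± 527.2 in SNc and 7193 ± 769.7 in VTA (mean ± SD), and the dopamine transporter (Slc6a3) 7245 ± 602.7 and 5782 ± 978.8. The aromatic amino acid decarboxylase Ddc was 2972 ± 138.2 and 2736 ± 583.9, and the vesicular monoamine transporter Slc18a2 3118 ± 1060 and 3031 ± 660.9. None of these passed the test between the regions. The captures also held signal of other cells, as 6 of 8 listed oligodendrocyte markers were tested, with summed intensities of 6038 to 10060 in SNc and 8275 to 12520 in VTA. Of the tested markers of oligodendrocytes, astrocytes, microglia, and blood and vessels, 0 passed in limma, and 1, the myelin gene Mobp, had an unadjusted p under 0.05. All 6 oligodendrocyte genes and all 5 of blood and vessels were lower in SNc (median log2 difference -0.26 and -0.32). Of 6 genes listed for glutamate neurons 2 were tested, and 0 passed by the brightest probe set. These were the NMDA receptor subunit Grin2c and the glutamate transporter Slc1a1. Neither is a vesicular glutamate transporter, so they are not taken here as a measure of glutamate neurons. Grin2c differed by 0.46 (SE 0.15), and its other probe set passed at 1.07 (limma adjusted p = 0.00188). In such material fewer cells of a type and less RNA per cell cannot be told apart.

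Of the 7 genes, Rab3c was higher in SNc by both of its probe sets, narrowly past the threshold, and no other gene passed. Regions were compared on the log2(intensity + 16) scale with limma over the 5244 probe sets that remained after the dimmest 40% were left out, with Benjamini-Hochberg adjustment over all of them and a threshold of 0.05. Of the 9 member probe sets tested, 2 passed, both higher in SNc, where 1.98% of all probe sets passed in either direction, 0.839% as higher in SNc and 1.14% as higher in VTA. In all 9 the ranges of the regions overlapped, where 0.858% of all probe sets showed no overlap. An unadjusted p under 0.05 was seen in 6 of the 9, against 15.4% of all probe sets. Of these, 4 were higher in SNc (Rab3c and Syn2) and 2 higher in VTA (Rab3b and Syn1). As the members were chosen with earlier results of these data known, their shares beside all probe sets are a description only. The median log2 difference, SNc minus VTA, was 0.31 over the 9 and -0.04 over all probe sets tested. The 9 stand for 6 genes, with 3 for Syn2 and 2 for Rab3c, so these genes weigh more in that median. By brightest probe set, Rab3a (0.31), Rab3c (1.19) and Syn2 (0.58) were higher in SNc. Rab3b (-0.63), Rab3d (-0.08) and Syn1 (-0.39) were lower. The 2 probe sets left out for low signal were the dimmer one of Rab3b and the only one of Rph3a.

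**Figure D1:**
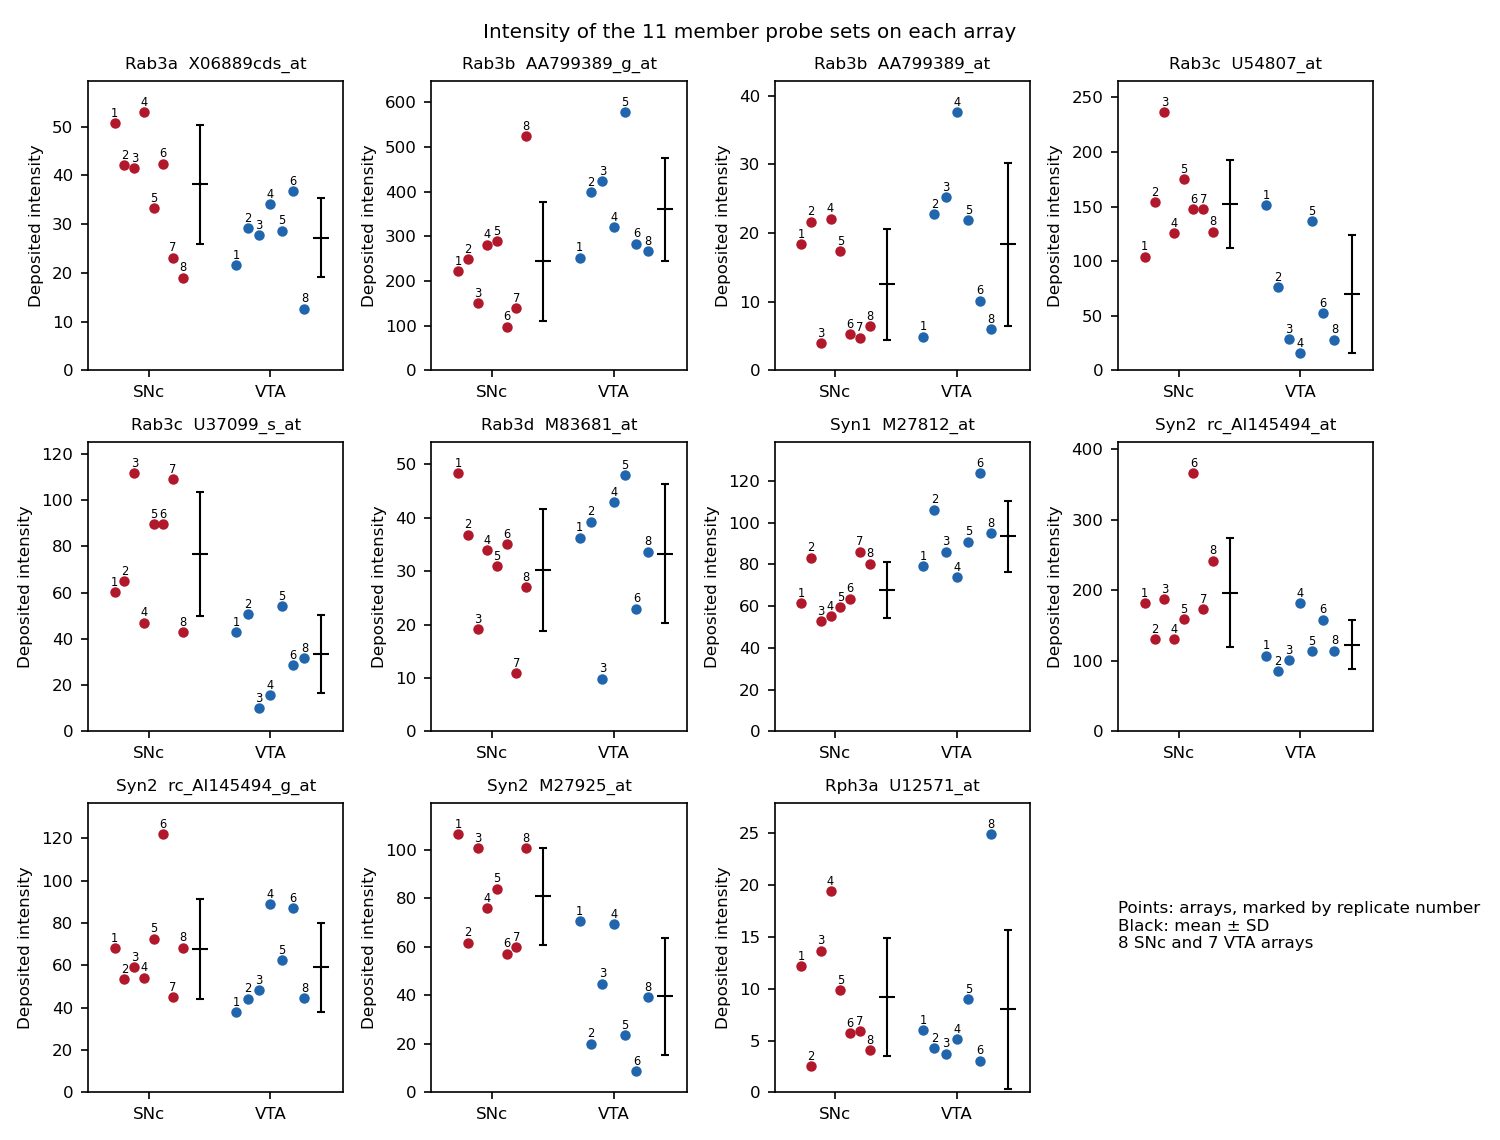
Deposited intensity (vertical axis, linear, from 0) of each of the 11 probe sets on the 8 SNc (red) and 7 VTA (blue) arrays; points are single arrays marked by replicate number, and the black marks are mean ± SD. Rab3c U54807_at lies between 104.1 and 236.2 on the SNc arrays and between 16.15 and 151.2 on the VTA arrays.

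Rab3c is a Rab3 isoform of neurons and secretory cells. Its brighter probe set, U54807_at, read 104.1, 154, 236.2, 125.4, 174.9, 147.9, 147.7 and 127 on SNc 1 to SNc 8. On the VTA arrays it read 151.2 in VTA 1, 76.05 in VTA 2, 28.74 in VTA 3, 16.15 in VTA 4, 136.4 in VTA 5, 52.54 in VTA 6 and 28.24 in VTA 8. All SNc arrays lay above 100, while the VTA arrays were split, with VTA 1 and VTA 5 inside the SNc range and the other 5 below every SNc array. SNc averaged 152.1 ± 40.14 and VTA 69.9 ± 54.3 (log2 difference 1.19, SE 0.30, limma adjusted p = 0.0487), a 2.28-fold difference on the offset scale. On the log2 scale the SD was 0.92 in VTA and 0.32 in SNc.

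The second Rab3c probe set, U37099_s_at, is built on another database sequence and differed in the same direction at lower signal. Probe sequences were not analysed here, so whether any of these probe sets also reads another Rab3 transcript was not examined. It read 60.26, 64.83, 111.5, 47.01, 89.55, 89.56, 109.1 and 42.85 on SNc 1 to SNc 8. In VTA 1 to VTA 6 it read 42.8, 50.68, 10.17, 15.73, 54.31 and 28.73, and in VTA 8 it read 31.66. Again VTA 3 and VTA 4 were low and VTA 1, VTA 2 and VTA 5 the highest of their region, and 6 of the 8 SNc arrays lay above every VTA array. SNc averaged 76.84 ± 26.82 and VTA 33.44 ± 16.84 (log2 difference 0.93, SE 0.23, limma adjusted p = 0.0416).

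Both probe sets of Rab3c lay close to the threshold, and most fits without a single array lost the calls. The call of U54807_at was lost on leaving out any of 13 of the 15 arrays, all but VTA 1 and VTA 5, with an adjusted p of up to 0.108. The call of U37099_s_at was lost on leaving out any of 11 arrays, all but SNc 4, SNc 8, VTA 2 and VTA 5, with an adjusted p of up to 0.0941. The log2 difference stayed between 0.99 and 1.39 for the first and between 0.80 and 1.03 for the second. Both calls were also lost with an offset of 1 (limma adjusted p = 0.0795 and 0.0608), with no filter on dim probe sets (0.0867 and 0.0667) and in an exact permutation test (adjusted p = 0.114 and 0.0835), and that of U54807_at after quantile normalization (limma adjusted p = 0.0513). Of all 27 and 26 other settings, single arrays included, the probe sets passed in 9 and 11. Without both VTA 5 and VTA 8, the arrays that stood apart, the log2 differences were 1.26 and 1.06 and both passed (limma adjusted p = 0.0433 and 0.0404). VTA 5 was itself among the highest VTA arrays in Rab3c (136.4 and 54.31), and without it alone both passed (limma adjusted p = 0.0171 and 0.0290). Without VTA 8 alone neither passed (limma adjusted p = 0.0853 and 0.0562). With both probe sets averaged, an alternative chosen after seeing the data, the log2 difference was 1.06 (SE 0.25) and passed over 3221 genes (limma adjusted p = 0.0281).

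**Figure D2:**
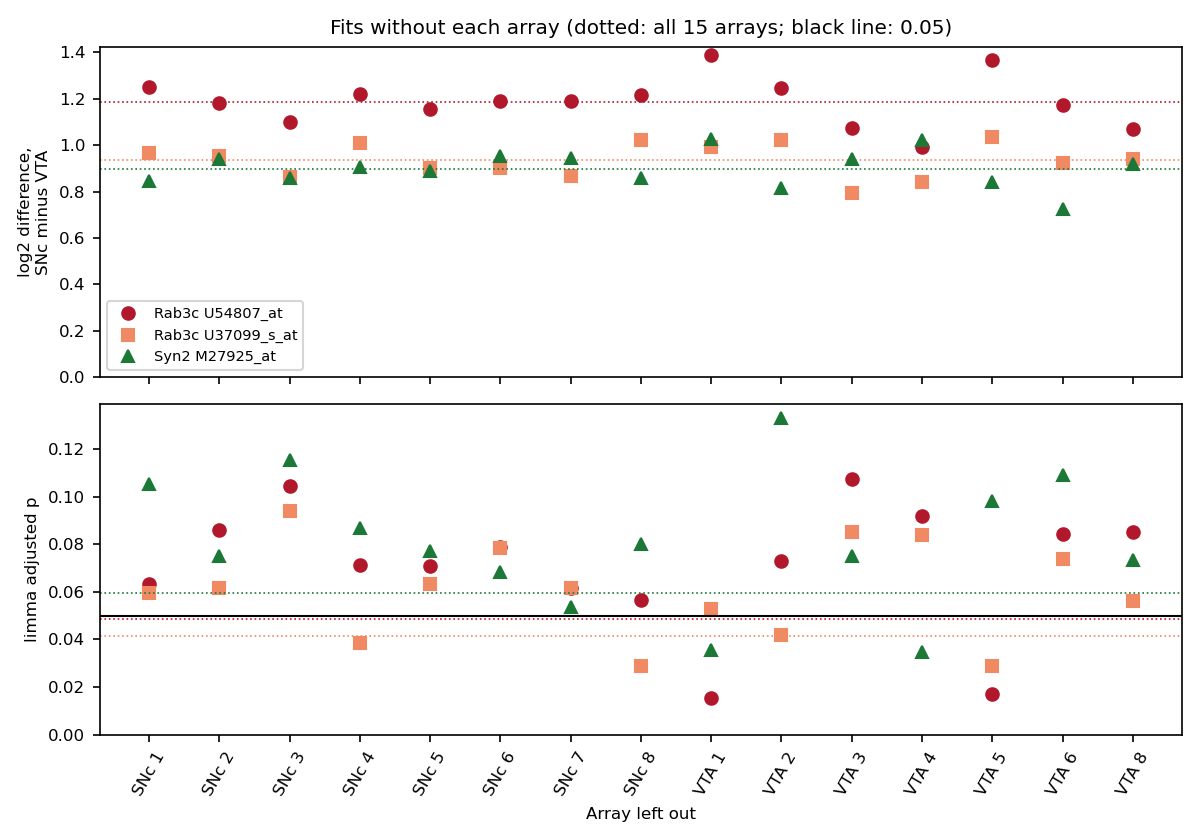
Log2 difference, SNc minus VTA (upper panel), and limma adjusted p (lower panel) of both Rab3c probe sets and Syn2 M27925_at in fits without the array named on the horizontal axis; dotted lines are the fits with all 15 arrays and the black line is 0.05. The differences stay above 0.7, while the adjusted p of Rab3c U54807_at is below 0.05 only without VTA 1 or VTA 5.

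The difference in Rab3c lay beside a difference in markers of GABA neurons, which border the SNc. Of 10 listed GABA neuron markers 6 were tested, all 6 had a positive SNc minus VTA difference, and 3 passed as higher in SNc. These were Gad1, which makes GABA (log2 difference 1.45, SE 0.23), the calcium buffer Pvalb (1.34, SE 0.30) and the potassium channel Kcnc1 (1.11, SE 0.25). The summed intensity of the 6 markers was 1700 to 2504 in SNc and 987.8 to 1691 in VTA, so the lowest SNc sum lay just above the highest VTA sum. Second probe sets of these genes did not all share the sign, as Slc32a1, the vesicular GABA transporter, gave 0.07 by its brightest probe set and -0.42 by the other, and the potassium channel Kcnc2 gave 0.50 against -0.27 and 0.00. Among the SNc arrays, SNc 1 was lowest both in Rab3c U54807_at and in the sum (1700), and SNc 3 and SNc 5 were highest in both (sums of 2435 and 2504). SNc 4 went the other way, with a sum of 2383 but a U54807_at reading of 125.4, where only SNc 1 was lower. By U37099_s_at the lowest SNc arrays were SNc 8 (42.85) and SNc 4 (47.01), not SNc 1 (60.26). Among the VTA arrays, VTA 1 and VTA 5, with the highest U54807_at readings, had sums of 1135 and 1117, and VTA 3 and VTA 4, low by both Rab3c probe sets, had the largest sums at 1613 and 1691. VTA 8, VTA 6 and VTA 2 also read lower in U54807_at (28.24, 52.54 and 76.05), but with the smallest sums (1016, 1068 and 987.8). The part of these cells in the Rab3c difference was not tested.

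The 3 genes whose deviations from the region means were most like those of Rab3c U54807_at, by Pearson's r over the 15 arrays and among 4298 named probe sets, were Gnao1, Tgfbr3 and Hspa13. Gnao1 encodes a G protein alpha subunit of neurons (r = 0.81, and 0.91 over the 7 VTA arrays alone). Tgfbr3 encodes a co-receptor for TGF-beta (r = 0.80), and Hspa13 a heat shock protein 70 family member (r = 0.77). These are the best of many comparisons and are given as a description. The arrays share their hybridisation and scaling, and none of the 3 genes passed between the regions.

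The other Rab3 isoforms did not pass, and their mean differences ran in both directions. Rab3a is the main Rab3 of brain synapses. Its probe set read 50.74, 42.12, 41.55, 52.91, 33.33, 42.43, 23.15 and 19.05 on SNc 1 to SNc 8, and from 12.66 to 36.79 in VTA with a median of 28.65. Of the SNc arrays, 5 lay above every VTA array and SNc 7 and SNc 8 lay below the VTA median. The log2 difference was 0.31 (95% confidence interval -0.05 to 0.67, limma adjusted p = 0.392), at signals near the level of 26.3 below which probe sets were left out.

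Rab3b, an isoform of neurons and endocrine cells, had the opposite sign. Its brighter probe set, AA799389_g_at, read 222.2, 249.7, 150, 281.6, 289.7, 98.08, 139.4 and 524.4 on SNc 1 to SNc 8. It read 252.5, 399.5, 423.6, 320.5, 577.4 and 284 on VTA 1 to VTA 6 and 266.3 on VTA 8. The regions overlapped, with 5 of the SNc arrays below every VTA array and SNc 8 above all VTA arrays but VTA 5. SNc averaged 244.4 ± 132.9 and VTA 360.6 ± 115.9 (log2 difference -0.63, SE 0.27, limma adjusted p = 0.256). Its dimmer probe set, AA799389_at, from the same database sequence, was between 3.962 and 37.54 and too dim for the main fit (log2 difference -0.24, SE 0.22, in the limma fit of all probe sets).

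Rab3d, the isoform best known from exocrine and other secretory cells, was dim and did not differ beyond its spread. It read from 10.92 to 48.32 in SNc with a median of 32.43, and from 9.902 to 47.99 in VTA with a median of 36.32. The ranges nearly coincided. The log2 difference was -0.08 with a 95% confidence interval of -0.51 to 0.35, so a difference of up to about those sizes cannot be told from none with these arrays. After quantile normalization or median centring it was 0.00 and 0.01.

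**Figure D3:**
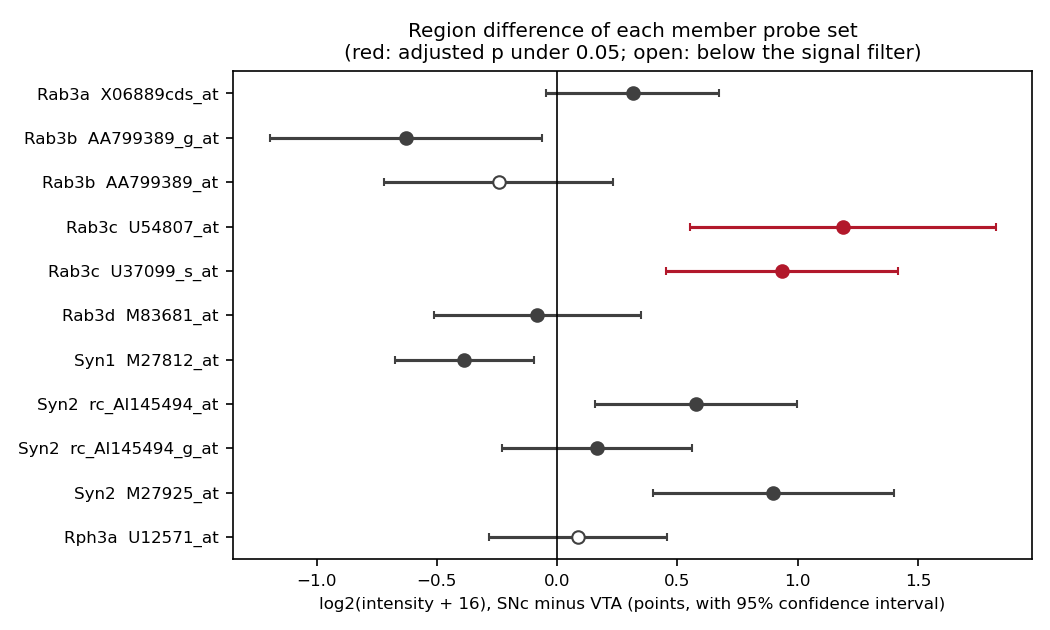
Difference between the regions on the log2(intensity + 16) scale, SNc minus VTA, of each probe set with its 95% confidence interval from limma; red marks an adjusted p under 0.05, and open circles mark the 2 probe sets below the signal filter, from the fit of all probe sets. The 2 Rab3c probe sets, at 1.19 and 0.93, are the only ones in red, and Rab3b and Syn1 lie on the other side of 0.

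The synapsins differed from each other in sign, and neither passed the threshold. Syn1 encodes synapsin I, the most abundant synapsin of mature terminals. It read 61.5, 83.23, 52.85, 55.29, 59.4, 63.61, 86.09 and 80.3 on SNc 1 to SNc 8. It read 79.11, 106.2, 86.05, 73.7, 90.86 and 123.5 on VTA 1 to VTA 6 and 94.98 on VTA 8. All 8 SNc arrays lay below the VTA mean and all 7 VTA arrays above the SNc mean, yet the ranges overlapped between 73.7 and 86.09. The log2 difference was -0.39 (SE 0.14, limma adjusted p = 0.171).

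Syn2 encodes synapsin II, and its 3 probe sets had a positive difference. The probe set M27925_at read 106.2, 61.71, 100.6, 75.87, 83.88, 57.15, 59.82 and 100.6 on SNc 1 to SNc 8. It read 70.61, 20.12, 44.75, 69.28, 23.71 and 8.788 on VTA 1 to VTA 6 and 39.35 on VTA 8. VTA 1 and VTA 4 lay inside the SNc range and the other 5 VTA arrays below it. SNc averaged 80.73 ± 20.1 and VTA 39.51 ± 23.98 (log2 difference 0.90, SE 0.24, limma adjusted p = 0.0595). It passed in 6 of 26 other settings, among them median centring of each array (limma adjusted p = 0.0384) and quantile normalization (0.0421), and in the other 20 it did not, with an adjusted p of up to 0.133.

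The other Syn2 probe sets, both from another database sequence, gave smaller differences. The brighter one, rc_AI145494_at, read 182.4, 130.7, 187.5, 131, 159.4, 365.7, 173.5 and 242.1 on SNc 1 to SNc 8, and from 85.21 to 181.4 in VTA with a median of 114.2. SNc 6 stood far above the rest, and 4 SNc arrays lay above every VTA array. The log2 difference was 0.58 (SE 0.20, limma adjusted p = 0.155). The dimmer one, rc_AI145494_g_at, averaged 67.85 ± 23.7 in SNc against 59.04 ± 21.16 in VTA (0.16 on the log2 scale, SE 0.19). With the 3 averaged, the log2 difference was 0.55 (SE 0.15, limma adjusted p = 0.0729).

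The 3 genes most like Syn2 rc_AI145494_at by the same measure were Idi1, an isomerase of isoprenoid synthesis (r = 0.73), the inositol phosphatase Minpp1 (0.73) and the muscle troponin Tnnt3 (0.73). The probe sets of Syn2 did not measure the same variation. Over the 15 arrays, the deviations from the region means correlated at 0.83 between rc_AI145494_at and rc_AI145494_g_at, but at 0.00 between rc_AI145494_at and M27925_at. The 2 Rab3c probe sets correlated at 0.74. Between genes, the most negative value of the 55 pairs was that of Syn1 and Syn2 M27925_at at -0.70, where VTA 6 had the highest Syn1 and the lowest Syn2 reading of all arrays. These correlations describe 15 arrays that share their scaling, and they are given without a test.

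**Figure D4:**
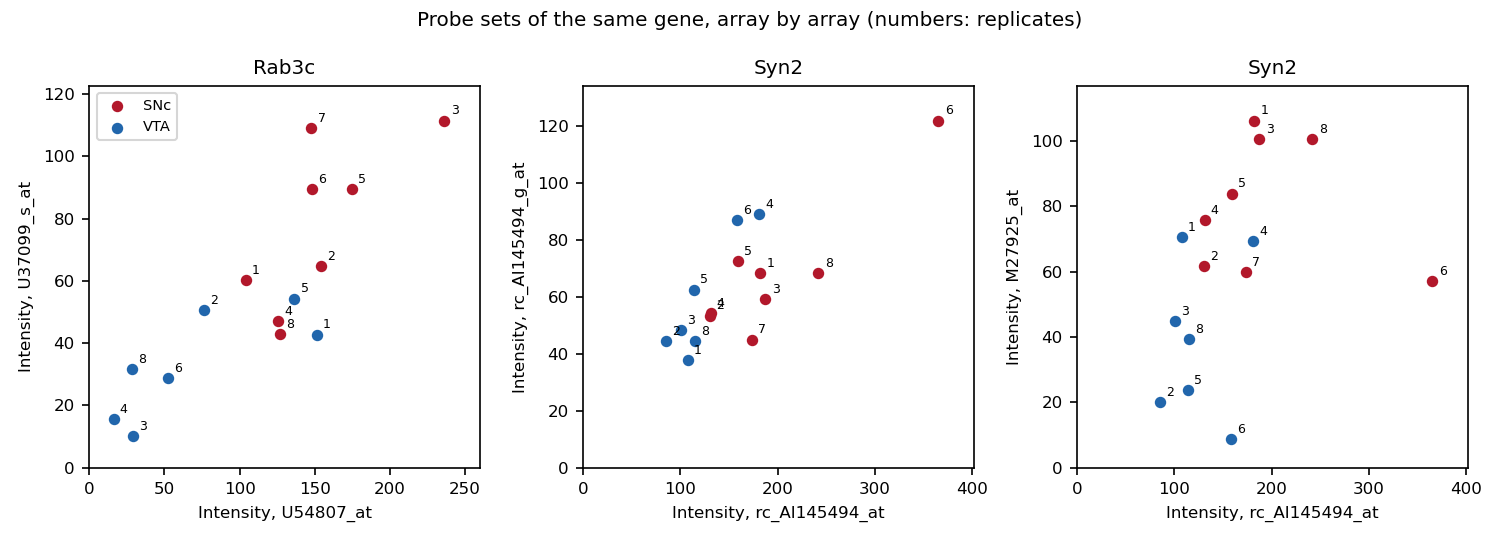
Intensities of pairs of probe sets of the same gene on each array (red SNc, blue VTA, numbers are replicates; both axes linear from 0): Rab3c U54807_at against U37099_s_at, and Syn2 rc_AI145494_at against each of the other Syn2 probe sets. VTA 3 and VTA 4 lie low for both Rab3c probe sets, while Syn2 M27925_at takes 57.15 on SNc 6, where rc_AI145494_at takes its highest value of 365.7.

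Rph3a, rabphilin, was near the bottom of the scale. Its probe set read 12.21, 2.536, 13.69, 19.46, 9.903, 5.71, 5.904 and 4.11 on SNc 1 to SNc 8, and from 3.079 to 9.002 on the VTA arrays other than VTA 8, where it read 24.9. All 15 arrays were below 26.3, so the probe set was not in the main fit. In the limma fit of all probe sets the log2 difference was 0.09 (95% confidence interval -0.28 to 0.46).

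Genes that act on Rab3 were set beside it. Of 27 listed regulators and effectors 8 were tested, and 0 passed in limma, with 1 at an unadjusted p under 0.05. That gene was Rab3ip, which encodes a Rab3-interacting exchange factor for Rab GTPases. Rab3ip averaged 89.75 ± 12.64 in SNc against 65.79 ± 18.59 in VTA (0.39 on the log2 scale, SE 0.15, limma adjusted p = 0.192). Madd, an exchange factor for Rab3, was 54.13 ± 31.25 and 64.22 ± 20.23 (log2 difference -0.32, SE 0.29). In the list 2 genes were positive and 6 negative, with a median of -0.08, beside -0.04 over the 3221 genes tested.

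Docking and priming factors and recycling proteins also gave no call. Of 34 docking and priming factors 13 were tested, with 0 past the threshold in limma and 0 at an unadjusted p under 0.05, and 11 of the 13 were positive (median 0.15). Over all genes tested 44.4% were positive and 15.5% had an unadjusted p under 0.05. Cplx2, a complexin that binds the SNARE complex, was uneven at 1098 ± 508.7 in SNc and 677.4 ± 346.1 in VTA (0.64 on the log2 scale, SE 0.37), and the exocyst subunit Exoc2 was 202.2 ± 13.64 and 173.3 ± 32.1 (0.22, SE 0.13). The 28 listed recycling proteins left 15 tested genes and no call in limma, with 2 at an unadjusted p under 0.05 (median 0.15). Synj1, synaptojanin, which strips phosphoinositides from coated vesicles, was 2873 ± 544.2 in SNc and 2018 ± 332.9 in VTA (0.50 on the log2 scale, SE 0.15, limma adjusted p = 0.0983), and its other probe set gave 0.49. Amph, amphiphysin, which recruits dynamin, had the other sign, at 47.31 ± 9.405 and 61.62 ± 6.666 (-0.31, SE 0.13).

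Vesicle membrane proteins, synapsin kinases and other Rab proteins were likewise without a call in limma. Of 14 tested membrane proteins 1 had an unadjusted p under 0.05, Syngr1, synaptogyrin, at 77.82 ± 14.95 in SNc and 104 ± 18.28 in VTA (-0.36 on the log2 scale, SE 0.14), while its dimmer probe set gave 0.30. Dnajc5, the vesicle chaperone CSP, differed by 0.24 (SE 0.12), and the list's median was 0.03. None of 14 synapsin kinases and phosphatases had an unadjusted p under 0.05. Among them Camk2d, a calmodulin-dependent kinase subunit, differed by 0.26 (SE 0.17), while its dimmer probe sets gave -0.15 and -0.12. Cdk5r1, the activator of Cdk5, differed by -0.18 (SE 0.12), and the median of the list was -0.03. Of 17 other Rab GTPases 2 had an unadjusted p under 0.05, Rab33b of the Golgi (0.43, SE 0.17) and Rab5a of early endosomes (0.43, SE 0.20). The dimmer probe set of Rab5a gave 0.035, and the list's median was 0.15. Over the 6 lists 0 of 81 genes passed in limma, where 2.17% of all genes passed.

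**Figure D5:**
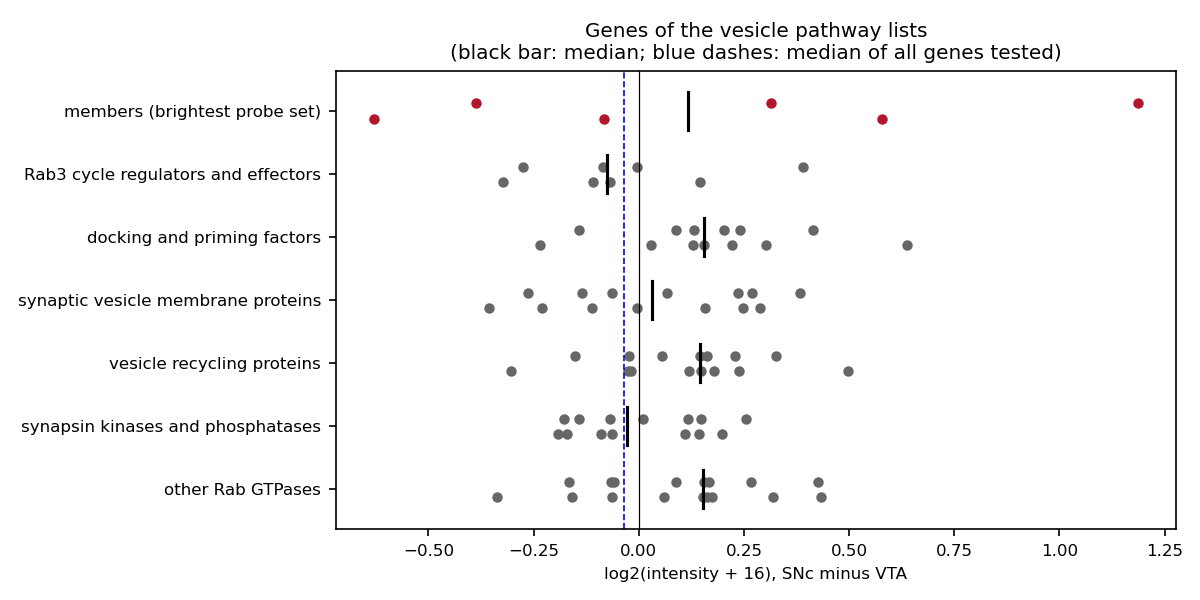
Log2 difference, SNc minus VTA, of each tested gene by its brightest probe set: the 6 tested member genes (red) and the 6 vesicle pathway lists (grey). Black bars are medians, the blue dashed line is the median of all genes tested at -0.04, and Rab3c at 1.19 lies beyond every gene of the lists.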

How the data were processed

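The authors deposited 1 linear intensity per probe set and array, and per the labels each array is a laser capture of SNc or VTA neurons. By the values the arrays had been scaled to a common level, and the software behind them is not given in the sources used here. Probe set names came from the platform annotation: of 8740 probe sets other than 59 controls, 7006 had 1 symbol, 308 several and 1426 none. From the intensities, log2(intensity + 16) was computed, the dimmest 40% by mean log2 value were left out (below an intensity near 26.3), and limma 3.58.1 in R 4.3.3 (lmFit, eBayes, two-sided) was run on the other 5244. The offset makes differences of dim probe sets smaller. The procedure was tested on simulated data. Arrays give no depth, so their number limits precision.

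The members and lists were chosen with earlier results of these data known. Named genes were every member probe set, list genes past the threshold and the 2 with the smallest p per list, marker genes past the threshold and 4 dopamine neuron genes, and for Rab3c and Syn2 the 3 genes most alike. A gene was represented by its brightest probe set. Alternatives were other scalings, offsets and filters, blocks, array weights, another variance model, an exact permutation test, and fits without single arrays or without VTA 5 and VTA 8.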

Additional observations from a re-analysis of the deposited data

Results flagged for a closer look

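Of 60 groups of readings examined (each named probe set in each region), 4 held a lowest or highest array far from the others, and about 1 group in 20 would be expected by chance. Syn2 rc_AI145494_g_at read 121.8 on SNc 6 against 44.96 to 72.59 on the other SNc arrays. Rph3a U12571_at read 24.9 on VTA 8 against 3.079 to 9.002 on the other VTA arrays. Cplx2 read 221.1 on SNc 4 against 777.8 to 1983 on the other SNc arrays. Syngr1 read 142.2 on VTA 8 against 85.04 to 106.1 on the other VTA arrays.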

How the results depend on the processing

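Of the member probe sets, 2 passed the threshold, and 0 passed with an offset of 1, with no filter and in the exact permutation test, 1 with the filter of the lowest 60% 1 with the replicate number as a fixed block, and 3 with median centring and with the number as a random block. Leaving out single arrays gave 0 to 2, with 0 for 9 of the 15 arrays. The total of 104 probe sets became 59 with an offset of 1, 68 in the exact permutation test and 184 with array weights, and lay between 56 and 115 without single arrays. With median centring 64.4% of the calls were higher in SNc, against 42.3%. Rab3c kept its direction in all 27 and 26 other settings run for its probe sets, with log2 differences of 0.77 to 1.47 and 0.53 to 1.29, and passed in 9 and 11 of them. Rab3d, which was never called, had a difference of 0.00 (quantile normalization), 0.01 (median centring), 0.023 (fixed block), 0.003 (array weights), 0.016 (without VTA 5 and VTA 8) and ran from -0.228 to 0.023 without single arrays, above 0 only without SNc 7. The cause of these changes was not tested, and some of the fits held fewer arrays or probe sets. The labels do not say what a replicate number marks, and same-numbered arrays deviated together only weakly (r from 0.044 to 0.254 over 7 pairs). The fixed replicate block gave 99 calls and a random one 153; under the fixed block the called member was Syn2 M27925_at (adjusted p = 0.0228), and both Rab3c calls were lost (adjusted p = 0.0784 and 0.0849).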
